A study of Rattus norvegicus with 8 samples.

Results

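Calcineurin is a calcium- and calmodulin-activated protein phosphatase built from a catalytic and a regulatory subunit. It removes phosphates from NFAT transcription factors in the cytoplasm, which then enter the nucleus and bind DNA, often beside AP-1. Rcan proteins bind calcineurin and restrain it, and in human and mouse cells Rcan1 is itself switched on by NFAT through an internal promoter, so that the pathway feeds back on itself. In vascular smooth muscle the pathway is known for coupling calcium signals from hormone receptors to gene expression and growth.

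The 10 genes listed for this pathway were Rcan1, Rcan2, Nfatc1, Nfatc2, Nfatc3, Nfatc4, Ppp3ca, Ppp3cb, Ppp3r1 and Hivep3. A gene was represented by the RNA locus with the highest mean level among loci whose RefSeq accessions matched exactly 1 symbol. A locus was found for 9 of the 10, out of 14767 symbols with a locus in all, and Nfatc1 was not analysed here. Of these 9, 8 were expressed, meaning an RNA level of 1 FPKM or more (sequenced fragments per transcript length and library size) in at least 1 library, as were 8354 symbols in all. Nfatc2 stayed under that minimum.

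Primary vascular smooth muscle cells had been isolated from Sprague-Dawley rats, out of the thoracic aorta, and cultured with serum. One group received 0.1 uM angiotensin II (AngII), the blood pressure hormone, for 3 h after an overnight serum starvation, and the control group was untreated. The labels give the starvation for AngII samples only, so hormone and starvation cannot be told apart from the labels. RNA, the promoter mark H3K4me3 and the gene body mark H3K36me3 were each measured in 1 library per condition, so no difference has a replicate check and no test or p-value is given. The labels do not say how many animals the cells came from.

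Both RNA libraries held smooth muscle transcripts. Of 8 smooth muscle markers 7 had a locus, Acta2 not among them, and 6 were expressed, with a summed level of 5726 FPKM after AngII and 5497 FPKM in control. Tagln made up most of these sums, at 5244 FPKM after AngII and 5103 FPKM in control. Myh11 stood at 84.7 FPKM after AngII and 96.5 FPKM in control. Of the 6 expressed markers 4 were higher after AngII and 2 were lower. The leukocyte genes Ptprc, Cd3e, Cd3d, Cd4 and Itgam were listed at 0 in both libraries, while Cd14 and Cd74 stood at 5.04 to 6.77 FPKM. The 10 leukocyte loci summed to 12.5 FPKM after AngII and 11.5 FPKM in control, and 2 of them were expressed. Of the 6 endothelial markers with a locus 1 was expressed, Erg, at 2.12 FPKM after AngII and 2.21 FPKM in control. Tie1 and Emcn were listed at 0, and the 6 summed to 2.58 FPKM after AngII and 2.93 FPKM in control. Of the 7 skeletal or cardiac muscle markers with a locus 1 was expressed, with sums of 1.33 FPKM after AngII and 2.24 FPKM in control. Adventitial fibroblast markers had 6 loci, 5 of them expressed, with sums of 134 FPKM after AngII and 171 FPKM in control. Lum led at 111 FPKM after AngII and 140 FPKM in control, and Cd34 was listed at 0. All 5 expressed fibroblast markers were lower after AngII, and their part in the results was not tested. In bulk RNA, fewer cells of a type and less RNA per cell cannot be told apart.

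After AngII, 2 of the 8 expressed genes were much higher and the other 6 were within 2-fold on the scale with 1 FPKM added, which all calls use. The calcineurin inhibitor Rcan1 and the zinc finger gene Hivep3 were at least 2-fold higher, and no member was at least 2-fold lower on that scale, although the unadjusted FPKM of Nfatc3 was 2.02 times as high in control. Hivep3 was under 1 FPKM in control, so it counted as expressed through the AngII library alone. The same minimum in either library set the symbols behind the shares that follow. Among all 8354 expressed symbols 3.89% were at least 2-fold higher and 2.96% at least 2-fold lower, and 2.71% were higher and 1.58% lower with bounds that do not overlap. The bounds are those the authors deposited around each value, 2 SD either side, and they hold model error only. Over both directions together the shares were 6.85% past 2-fold and 4.29% with bounds apart as well. Bounds were apart for both higher members. The median log2 ratio, log2((AngII FPKM + 1)/(control FPKM + 1)), was -0.08 over the 8 members, beside -0.22 over all expressed symbols. The median of all symbols thus lay below 0, which bears on the sign of small differences. With AngII values scaled by 1.21, so that the median expressed locus has a ratio of 0, higher loci made up 66.8% of calls over all expressed loci against 45.5% as deposited. Those 16654 expressed loci, named or not, were past 2-fold in 10.2% of cases, 4.64% higher and 5.54% lower, and with bounds apart in 6.11%, 3.04% higher and 3.07% lower.

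**Figure D1:**
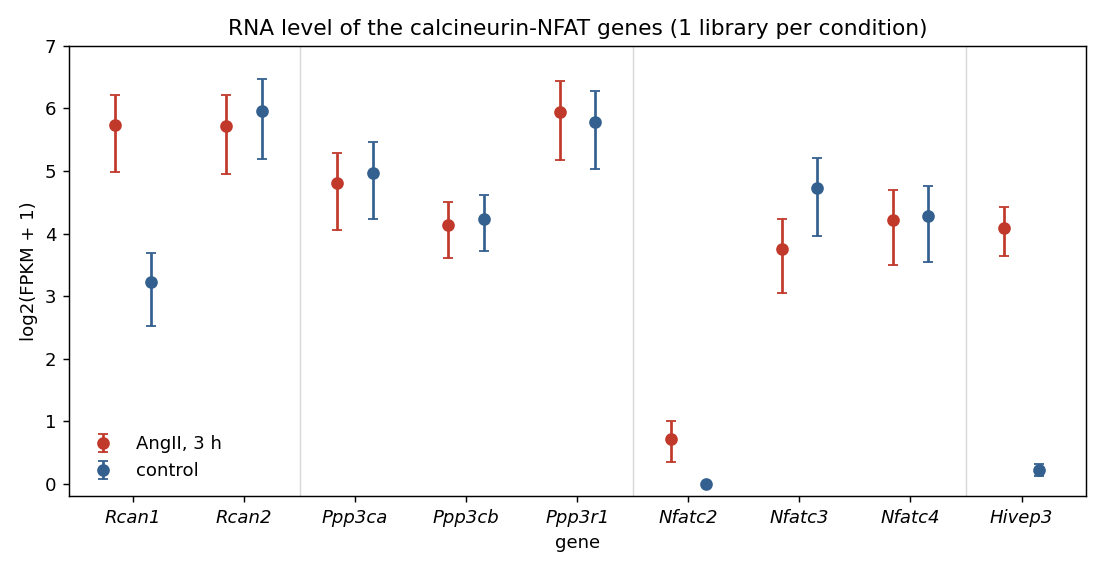
RNA level of the 9 genes with a locus as log2(FPKM + 1), with AngII in red to the left and control in blue to the right; points are the single library of each condition and bars the deposited bounds. Rcan1 and Hivep3 stand apart between conditions, the calcineurin subunits overlap, and Nfatc2 is listed at 0 in control.

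**Figure D2:**
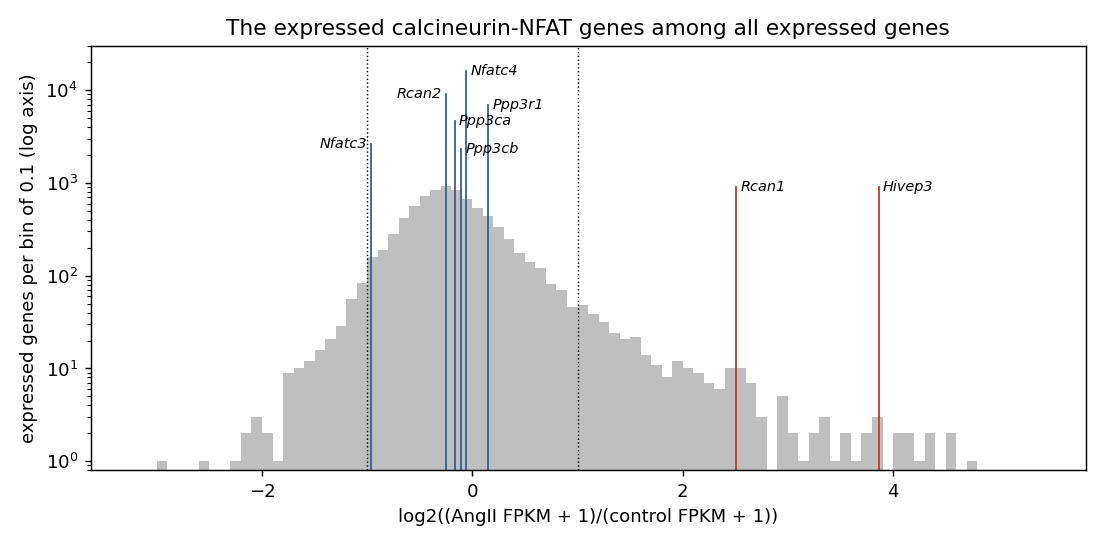
Number of expressed genes (log axis) by log2((AngII FPKM + 1)/(control FPKM + 1)) in bins of 0.1, with a line of arbitrary height for each of the 8 expressed pathway genes and dotted lines at 2-fold. Rcan1 and Hivep3 lie in the upper tail, Nfatc3 near the lower 2-fold line and the other 5 close to 0.

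Rcan1 (XLOC_006263, chromosome 11, 32386575 to 32480350 of the rat build rn4) stood at 52.0 FPKM after AngII (bounds 30.7 to 73.4) and 8.32 FPKM in control (4.77 to 11.9). The level after AngII was 6.25 times the control level and the bounds do not overlap. The log2 ratio of 2.51 placed Rcan1 at rank 51 of 8354 expressed symbols. The table lists 3 start site groups for Rcan1 but only their joint value, so the isoforms cannot be separated.

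Rcan2, the paralog with the same inhibitory role, stood at 51.4 FPKM after AngII (29.9 to 73.0) and 61.4 FPKM in control (35.5 to 87.3), a log2 ratio of -0.25 (0.02 when scaled to a median of 0). These bounds overlap. Its locus XLOC_028978 lies on chromosome 9 (12623120 to 12853302). The ratio of Rcan1 to Rcan2 in FPKM was 1.01 after AngII and 0.136 in control, and their sum was 103.5 FPKM after AngII and 69.7 FPKM in control. In control cells Rcan2 RNA was thus at a higher level than Rcan1 RNA, with bounds apart, and after AngII the bounds of both overlapped. Protein of either inhibitor was not measured. A second, 0.953 kb locus with the Rcan2 accession, 1.84 kb away, stood at 0.149 FPKM after AngII and 0.703 FPKM in control.

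The promoters of Rcan1, Rcan2 and Nfatc2 are shown because Rcan1 and Rcan2 are paralogs with unlike ratios and Nfatc2 was detected after AngII only. They are the 250 bases before each gene's RefSeq start in the assembly GRCr8, which is not the build of the files, and sequences were found for 6 of the 10 genes. Capitals mark 3 motifs searched on both strands: the NFAT core GGAAA (or TTTCC), the AP-1 site TGANTCA and the cyclic AMP response element TGACGTCA. All are on the minus strand, Rcan1 at chr11:45118237-45118486, Rcan2 at chr9:24672190-24672439 and Nfatc2 at chr3:177732975-177733224.
Rcan1: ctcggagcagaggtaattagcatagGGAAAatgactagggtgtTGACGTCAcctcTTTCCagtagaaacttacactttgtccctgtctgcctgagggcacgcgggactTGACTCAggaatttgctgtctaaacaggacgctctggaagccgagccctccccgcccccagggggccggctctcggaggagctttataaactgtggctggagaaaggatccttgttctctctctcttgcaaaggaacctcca
Rcan2: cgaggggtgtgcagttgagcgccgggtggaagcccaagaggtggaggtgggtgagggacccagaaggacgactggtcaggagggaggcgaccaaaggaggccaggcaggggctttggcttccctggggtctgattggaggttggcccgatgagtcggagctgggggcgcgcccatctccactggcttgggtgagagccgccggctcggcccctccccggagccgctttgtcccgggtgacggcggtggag
Nfatc2: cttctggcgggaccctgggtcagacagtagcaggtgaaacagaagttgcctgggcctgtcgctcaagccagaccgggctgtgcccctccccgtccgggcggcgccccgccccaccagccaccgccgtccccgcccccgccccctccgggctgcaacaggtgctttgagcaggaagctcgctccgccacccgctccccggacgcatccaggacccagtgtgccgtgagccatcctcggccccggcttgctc

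The Rcan1 window held 2 matches to GGAAA, 1 to TGANTCA and 1 to TGACGTCA, none overlapping another. Over 33469 promoters of the same length, 56.9% held GGAAA, 6.34% held TGANTCA and 1.59% held TGACGTCA. At least 2 matches to GGAAA were found in 22.9% of promoters and all 3 motifs together in 10 promoters (0.0299%), a combination counted after the Rcan1 window had been read. The windows of Rcan2, Nfatc2 and Ppp3ca held none of the 3 motifs, and those of Ppp3cb and Ppp3r1 held 1 GGAAA each. The Rcan1 window had 54% G and C, against 62.8 to 72% in the other 5. A match is a run of letters and not evidence of binding. Which start site group of Rcan1 this window precedes, and which H3K4me3 region it matches, was not determined.

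H3K4me3 lay at the right end of the listed Rcan1 interval and inside its left end in both conditions. A broad region of 17.9 kb after AngII (32391778 to 32409697) and 16.5 kb in control (32393278 to 32409801) lay 5.2 to 23.1 kb and 6.7 to 23.2 kb from the left end. It was wider than 99.1% of all AngII regions and 99.0% of all control regions. A region of 4.0 kb after AngII (32477218 to 32481217) and 3.52 kb in control (32477428 to 32480946) lay at the right end. The RNA table names no strand, so the ends are called left and right. These widths were 1.08 and 1.14 times as large after AngII, beside a median of 1.05 over 23487 pairs of H3K4me3 regions that overlap only each other. Widths run in steps of 160 bp after AngII and 153 bp in control, and these steps alone give a ratio of 1.05.

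The middle of Rcan1 differed more. An internal region was 3.84 kb wide after AngII (32437378 to 32441217) and 1.07 kb in control (32437189 to 32438259), a width ratio of 3.59 that exceeded 99.2% of pairs. A further 1.92 kb region after AngII (32452418 to 32454337) overlapped no control region. Over all pairs 4.01% were at least 2 times as wide after AngII. Both internal regions had low scores in the AngII list, at or above only 1.23% and 17.3% of its regions, the score being the authors' own value for each region.

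H3K36me3 covered 98.7% of the Rcan1 interval after AngII and 92.8% in control. After AngII it was a single region of 97.5 kb (32381614 to 32479157). In control it was listed as 2 regions of 67.7 kb and 24.7 kb, and the AngII-only H3K4me3 region lay across the right edge of the 5.30 kb gap between them. Without the lowest score quartile of each list the cover was 98.7% after AngII and 66.4% in control, since the narrower control region drops out. A joined layout was not particular to Rcan1. At Rcan2, with a log2 ratio of -0.25, H3K36me3 was a single region of 244 kb after AngII. In control it was listed there as 2 regions of 54.8 kb and 184 kb.

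**Figure D3:**
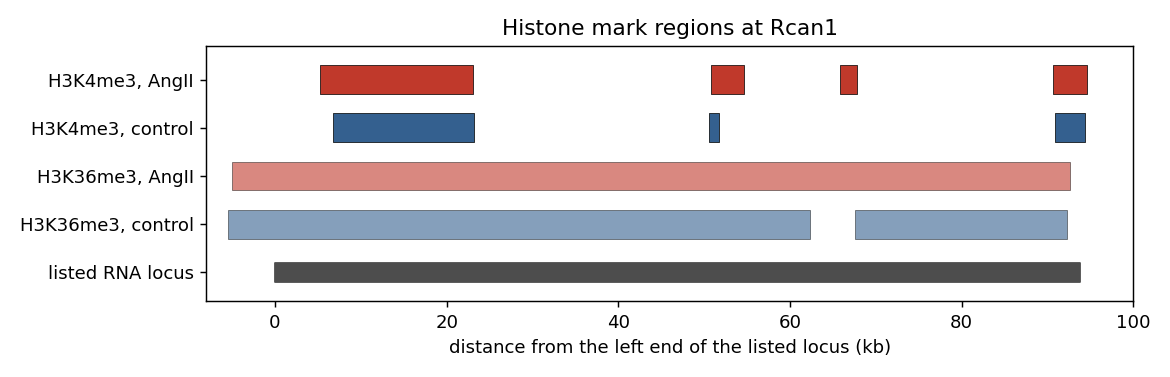
Regions of H3K4me3 and H3K36me3 at Rcan1 in each condition, drawn to scale against distance from the left end of the listed locus in kb, with AngII above control for each mark. The broad left and the right H3K4me3 regions are present in both conditions; 1 internal H3K4me3 region is wider and 1 is listed only after AngII, where H3K36me3 runs without a gap.

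The RNA of the 3 listed calcineurin subunit genes was at nearly the same level in both conditions, and protein was not measured. Another catalytic subunit gene, Ppp3cc, is not among the listed genes. It was lower after AngII, at 12.5 FPKM against 18.7 FPKM in control, with overlapping bounds. The catalytic alpha subunit Ppp3ca (XLOC_014579, chromosome 2, 234130175 to 234409232) stood at 26.9 FPKM after AngII (15.7 to 38.1) and 30.4 FPKM in control (17.8 to 43.0). The catalytic beta subunit Ppp3cb (XLOC_009388) stood at 16.5 FPKM after AngII (11.2 to 21.8) and 17.9 FPKM in control (12.2 to 23.6). The calcium-binding regulatory subunit Ppp3r1 (XLOC_008586, chromosome 14, 98060301 to 98099092) stood at 60.4 FPKM after AngII (35.2 to 85.5) and 54.2 FPKM in control (31.7 to 76.7). All 3 pairs of bounds overlap, with log2 ratios of -0.17, -0.11 and 0.15 for Ppp3ca, Ppp3cb and Ppp3r1; scaled to a median of 0 they were 0.10, 0.16 and 0.43. The ratio of Ppp3ca to Ppp3cb in FPKM was 1.63 after AngII and 1.70 in control.

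The value of Ppp3cb is uncertain. A second locus of 3.13 kb with the same accession (XLOC_030155, chromosome X, 153397631 to 153400759) stood at 6.83 FPKM after AngII and 8.62 FPKM in control and carried neither mark. The listed Ppp3cb interval (chromosome 15, 3729432 to 4361586) is shared with 17 other loci, so the marks counted there, H3K36me3 over 62.3% after AngII and 62.2% in control, belong to several genes. Ppp3r1 also had a second locus, 0.496 kb long and 1.59 kb away, at 1.07 FPKM after AngII and 2.03 FPKM in control.

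Ppp3ca and Ppp3r1 had H3K4me3 at the left end and H3K36me3 over most of the locus in both conditions. The left end of Ppp3ca held a region of 4.32 kb after AngII and 4.74 kb in control, and that of Ppp3r1 a region of 4.32 kb after AngII and 4.90 kb in control. H3K36me3 covered 76.7% of Ppp3ca after AngII and 74.9% in control, and 99.6% of Ppp3r1 after AngII and 100% in control. The layout within Ppp3ca differed, with a 14.2 kb H3K36me3 region (234189043 to 234203290) that overlapped no control region. Its score was 5.79. The AngII list of H3K36me3 reached lower scores than the control list. A score of 5.19 was at or above 0.627% of AngII regions, and 7.52 at or above only 4.71% of control regions. A low-scoring H3K36me3 region listed after AngII only is therefore an uncertain difference. At Ppp3ca 4 of the 5 AngII H3K36me3 regions lay in the lowest quartile of scores of their list, as did 2 of the 5 control regions, and without the lowest quartile its cover was 13.7% after AngII and 45.6% in control.

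The NFAT genes with a locus differed in level and in direction. Nfatc3 (XLOC_013377, chromosome 19, 35907799 to 35988670) stood at 12.5 FPKM after AngII (7.25 to 17.8) and 25.4 FPKM in control (14.7 to 36.1). The control level was 2.02 times the AngII level, and the bounds overlap. Its log2 ratio of -0.96 fell just short of 2-fold on the scale with 1 FPKM added, had 3.56% of expressed symbols below it, and was -1.01 with 0.1 FPKM added and -0.70 scaled to a median of 0.

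Nfatc4 (XLOC_009502, chromosome 15, 33969773 to 33978848) stood at 17.6 FPKM after AngII (10.2 to 24.9) and 18.4 FPKM in control (10.7 to 26.1). This was a log2 ratio of -0.06, or 0.21 scaled to a median of 0. Nfatc2 (XLOC_018662, chromosome 3, 159656031 to 159773643), a factor best known from T cells, stood at 0.635 FPKM after AngII (0.267 to 1.003) and was listed at 0 in control, where its bounds are also 0. Detection of Nfatc2 in the AngII library alone is a low-level difference under the expression minimum, and no ratio is given against a listed 0. The 3 NFAT genes summed to 30.8 FPKM after AngII and 43.8 FPKM in control.

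Of the NFAT genes, Nfatc3 and Nfatc4 had H3K4me3 at a listed end in both conditions, 3.52 kb after AngII and 3.83 kb in control at the left end of Nfatc3, and 7.84 kb after AngII and 7.65 kb in control at Nfatc4. H3K36me3 covered 98.4% of Nfatc3 after AngII and 94.3% in control, on an interval shared with a locus of Esrp2, and 100% of Nfatc4 in both. At Nfatc2 no H3K4me3 region reached either listed end. Internal regions of 3.20 kb after AngII (159692614 to 159695813) and 2.30 kb in control (159692843 to 159695137) lay 36.6 and 36.8 kb from the left end, and H3K36me3 was listed there after AngII only, over 6.58 kb (159692782 to 159699357) or 5.59% of the locus. The score of that H3K36me3 region was 6.48, in the low range that few control regions reach, so this difference is uncertain.

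Hivep3 encodes a large zinc finger protein that binds kappa B-like DNA motifs and is known in mouse for restraining bone formation. It (XLOC_021805, chromosome 5, 140397654 to 140719162) stood at 15.99 FPKM after AngII (11.4 to 20.6) and 0.168 FPKM in control (0.0954 to 0.240). The level after AngII was 95.4 times the control level, and the bounds are far apart. The log2 ratio of 3.86 ranked 11 of 8354 expressed symbols. It rests on a very low control value, and was 5.91 with 0.1 FPKM added and 2.02 with 5 FPKM added.

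Both marks covered more of the 322 kb Hivep3 interval after AngII, H3K4me3 15.04 kb after AngII and 3.37 kb in control. H3K36me3 covered 51.1% of the locus after AngII and 0.733% in control, a difference of 50.4 points. Without the lowest score quartile of each list this cover was 33.9% after AngII and 0.733% in control. Among 6452 expressed symbols with coordinates of their own, 8.2% had cover higher by over 20 points after AngII and 2.29% had cover lower by over 20 points. Among the 266 of them that were at least 2-fold higher in RNA the share was 24.4%. Hivep3 was the only 1 of the 9 members past 20 points, and the other 8 differed by under 6 points. In control the cover was already 92.8 to 100% at Rcan1, Rcan2, Nfatc3, Nfatc4 and Ppp3r1. A gain of over 20 points was not possible at those genes. The shares over all symbols have the same ceiling, as the median cover of the 6452 was 100% in both conditions.

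The H3K36me3 at Hivep3 after AngII was led by a region of 102 kb (140616180 to 140718107) that overlapped no control region. It began beside an H3K4me3 region 219 kb from the left end, which was 5.28 kb wide after AngII (140617024 to 140622303) and 1.99 kb in control (140617410 to 140619398). That width ratio of 2.65 exceeded 98.5% of pairs. Split at this H3K4me3 region, a split chosen after the values were seen, H3K36me3 covered 99.0% of the right 102 kb after AngII and 0% in control, and 28.9% of the left 219 kb after AngII and 1.07% in control. The 102 kb region on the right had a score of 16.9. On the left, the AngII regions of 28.5 kb and 26.9 kb scored 6.78 and 5.75, in the low range that few control regions reach. The H3K4me3 region was thus already listed in control, where no H3K36me3 lay to its right.

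Hivep3 had 8 H3K4me3 regions after AngII and 3 in control. The 5 regions listed after AngII only were 0.48 to 3.84 kb wide and lay 104 to 186 kb from the left end, each within an AngII H3K36me3 region, with scores at or above 1.28 to 31.6% of the AngII list. The left end held a region of 1.92 kb after AngII (140397504 to 140399423) and 1.22 kb in control (140397549 to 140398772).

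Unnamed RNA to the left of Hivep3 was also more abundant after AngII. The 4 loci without an accession within 10 kb, XLOC_023276, XLOC_023277, XLOC_023278 and XLOC_023279, stood at 0.773, 0.848, 0.483 and 0.794 FPKM after AngII, against 0.111, 0.107, 0.128 and 0.0616 FPKM in control. Each was higher after AngII but under the expression minimum, and bounds were apart for 1 of them, XLOC_023279. A 13.2 kb H3K36me3 region listed after AngII only (140380540 to 140393691) covered the first 3 fully, and none had H3K4me3 within 1 kb. Beside Nfatc4, the 0.497 kb locus XLOC_010017 stood at 2.13 FPKM after AngII (0.579 to 3.69) and 0.238 FPKM in control (0 to 0.574), a log2 ratio of 1.34 with bounds barely apart. On the same side, XLOC_009501 stood at 0.477 FPKM after AngII and 1.12 FPKM in control, a log2 ratio of -0.52 in the other direction with overlapping bounds. Beside Ppp3r1, XLOC_009312 stood at 0.257 FPKM after AngII and 0.646 FPKM in control, also with overlapping bounds. Beside Ppp3ca, the 0.744 kb locus XLOC_016198 was listed at 0 after AngII and stood at 0.683 FPKM in control.

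All 9 members with a locus had H3K4me3 within 1 kb in both conditions, and H3K36me3 was listed at all 9 after AngII and at 8 in control, Nfatc2 being without it. H3K4me3 was found at 95.2% of expressed symbols with coordinates of their own after AngII and at 95.2% in control, so its presence is not particular to these genes. In order of level after AngII, the genes ran Ppp3r1, Rcan1, Rcan2, Ppp3ca, Nfatc4, Ppp3cb, Hivep3, Nfatc3 and Nfatc2, and among neighbours only Nfatc3 and Nfatc2 had bounds apart. In control the order was Rcan2, Ppp3r1, Ppp3ca, Nfatc3, Nfatc4, Ppp3cb, Rcan1, Hivep3 and Nfatc2. There the bounds of Ppp3cb and Rcan1, of Rcan1 and Hivep3, and of Hivep3 and Nfatc2 did not overlap.

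Closer relatives of the members were mostly within 2-fold. Of 6 further family genes 5 were expressed and 0 were past 2-fold, with a median log2 ratio of 0.15. Hivep2, a paralog of Hivep3, stood at 6.13 FPKM after AngII (4.18 to 8.08) and 2.88 FPKM in control (1.93 to 3.83), a log2 ratio of 0.88 with bounds apart that passed 2-fold when scaled to a median of 0. Hivep1 had a log2 ratio of 0.73, the third catalytic subunit gene Ppp3cc -0.55 and the osmotic stress factor Nfat5 0.15, all with overlapping bounds.

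Upstream, the calcium entry and release genes held 1 higher and 1 lower gene among 17 expressed, with a median of 0.03. Beside this and the other lists stand the shares over all expressed symbols, 3.89% higher and 2.96% lower. Orai1, the pore of the store-operated calcium channel, stood at 60.1 FPKM after AngII (35.98 to 84.3) and 24.9 FPKM in control (14.0 to 35.8), a log2 ratio of 1.24 with bounds barely apart. The angiotensin receptor gene Agtr1a was the lower 1, at 30.1 FPKM after AngII (17.5 to 42.6) and 99.2 FPKM in control (57.5 to 141). Orai2 (-0.74) and the cation channel gene Trpc6 (0.68) followed with overlapping bounds.

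The calmodulin, transport and kinase genes had list medians close to 0, above the median of -0.22 over all expressed symbols. Of 8 expressed calmodulin and calmodulin kinase genes 0 were past 2-fold, with a median of -0.03 and Calm3 (-0.41), Camk1 (-0.27), Camk2d (0.25) and Camkk1 (-0.16) furthest from 0. Of 8 importin, exportin and Ran genes 0 were past 2-fold, with a median of 0.07 and Kpna4 (0.44), Kpna1 (0.39), Ran (0.27) and Xpo1 (-0.27) furthest from 0. Of 10 expressed genes for kinases that phosphorylate NFAT 1 was lower, Dyrk1b (-1.08, overlapping bounds), with a median of 0.04, followed by Dyrk2 (0.53), Mapk9 (-0.18) and Gsk3b (0.16). Scaled to a median of 0 over all loci, the list medians were 0.23 for calmodulin, 0.33 for transport and 0.31 for kinase genes, so signs close to 0 depend on the scaling.

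Among 9 expressed calcineurin anchors and inhibitors 1 was lower and 0 higher, with a median of -0.08. Akap5, a scaffold that holds calcineurin and protein kinase A at the membrane, stood at 1.44 FPKM after AngII (0.690 to 2.20) and 4.16 FPKM in control (2.25 to 6.06), a log2 ratio of -1.08 with bounds apart that was within 2-fold when scaled to a median of 0. Akap1 (-0.68), Akap6 (0.56) and Homer3 (0.24) had overlapping bounds. Among 8 expressed genes of other calcineurin substrates 1 was lower, Foxo3 (-1.16, overlapping bounds), with a median of 0.20 and Tfeb (0.65), Bad (-0.47) and Crtc1 (0.40) following.

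Genes of DNA-binding partners of NFAT were the list furthest from the rest. The list had 10 expressed genes, of which 6 passed 2-fold upward, each with separate bounds, and 0 downward; its median was 2.27. These 6 were Fos, Fosl1, Junb, Egr1, Egr2 and Egr3, known as early response genes. Fosl1 (4.74), Egr1 (4.52), Egr2 (3.80) and Egr3 (3.76) led, and the listed interval of Egr1 is shared with other loci. Among all expressed symbols 3.89% were at least 2-fold higher. Fosl1, Egr2 and Egr3 were under 1 FPKM in control, so they counted as expressed through the AngII library alone. Because the list was chosen with earlier results of these data known, its count and median only describe it.

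Genes known as NFAT targets in other cells were divided. Of 13 expressed members 4 were higher, all with bounds apart, and 1 was lower, with a median of -0.09. Over all expressed symbols 3.89% were higher and 2.96% lower. The higher 4 were Nr4a3 (4.22), Ptgs2 (4.15), Nr4a1 (4.10) and Ccl2 (1.92), and the lower 1 was the atypical chemokine receptor gene Ackr3, at 47.7 FPKM after AngII (27.9 to 67.5) and 148 FPKM in control (85.1 to 211). Nr4a3 and Ccl2 were under 1 FPKM in control, so they counted as expressed through the AngII library alone. The T cell cytokine genes Il2 and Il4 and the genes Tnf and Tnfsf11 were listed at 0 in both libraries. These targets are reached by other factors too, and calcineurin or NFAT activity was not measured.

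**Figure D4:**
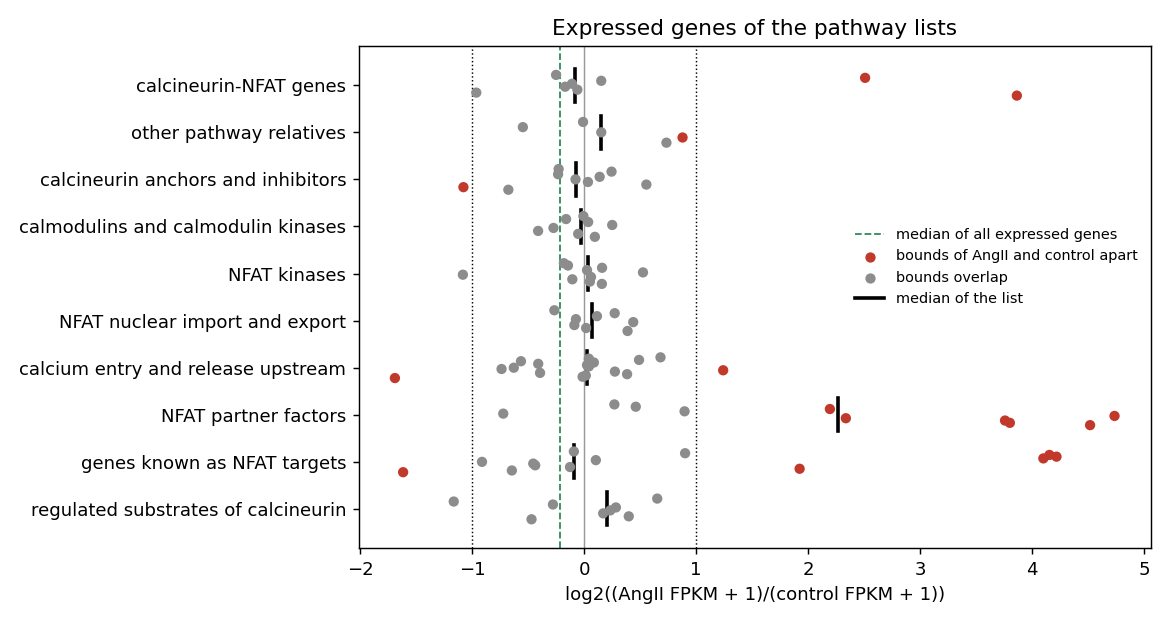
Log2((AngII FPKM + 1)/(control FPKM + 1)) of every expressed gene in the 10 lists, with red points where the deposited bounds of AngII and control are apart, grey points where they overlap, black bars for list medians, dotted lines at 2-fold and a dashed green line at the median of all expressed genes (-0.22). The partner factors have the highest median (2.27), while the kinase, transport and calmodulin lists stay close to 0.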

How the data were processed

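RNA levels are FPKM values with lower and upper bounds as deposited by the authors; the submitters' processing notes list TopHat, Cufflinks, Cuffdiff and rn4 and give no version. The RNA tables of both conditions are identical and hold both. Sequencing depth is unknown, and nothing is said of strand. The ChIP-seq lists hold regions with a score deposited by the authors; the aligner Bowtie appears in the submitters' processing notes, whereas no region caller is stated. Regions are multiples of 160 bp (AngII) and 153 bp (control) for H3K4me3, and of 548 bp (AngII) and 589 bp (control) for H3K36me3.

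Accessions were matched to symbols by means of a RefSeq table (GRCr8) that served for gene names alone. An accession was listed at 20869 loci, and 16025 of these matched exactly 1 symbol. Of 30937 loci 15 had no usable estimate. The log2 ratio adds 1 FPKM; a call needs 2-fold and 1 FPKM in at least 1 library. H3K4me3 was counted within 1 kb of a locus and H3K36me3 as percent of the locus. The 2 input libraries were not analysed here, and 1 marker gene is not reported here. Members and lists were chosen with earlier results of these data known. Named genes are the members and, from each list, at most 4 expressed genes furthest from a ratio of 0, the 2 genes nearest in level to each called member, and the unnamed loci within 10 kb of a member (the rule asked for at most 5, and the others are given too); Ptprc, Cd3e, Cd3d, Cd4, Itgam, Tie1, Emcn, Cd34, Acta2, Fos, Junb, Esrp2, Cd14, Cd74, Myh11, Ackr3, Il2, Il4, Tnf and Tnfsf11 were named after their values were seen. Tagln, Erg, Lum, Calm2 and Dpep1 were likewise named after their values were seen. Python 3.11.15, pandas 2.3.3 and matplotlib 3.10.9 were used, and the calls and overlaps were tested on simulated data.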

Additional observations from a re-analysis of the deposited data

How the results depend on the processing

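Of the calls on members, Rcan1 and Hivep3 were called higher under all 8 alternatives, and Nfatc3 was called lower as well with 0.1 FPKM added and at 1.5-fold. The alternative without an FPKM minimum could not change a call, as 2-fold with 1 FPKM added already needs 1 FPKM in a library. H3K4me3 was found at all 9 members under each window and score limit, though the wider window could not have lost a member. Over all expressed loci 1695 were called; the number was 3939 with a pseudocount of 0.1, 434 with a pseudocount of 5, 815 with an FPKM minimum of 5, 5304 at 1.5-fold and 1018 with bounds apart. Higher loci made up 45.5% of these calls, 66.8% scaled to a median of 0, 72.1% with a pseudocount of 5 and 32.3% with 0.1.

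Members with H3K36me3 cover higher by over 20 points numbered 1, and 2 without the lowest score quartile (Rcan1 and Hivep3), where Ppp3ca was lower; the limit removes regions from either list. Scaled to a median of 0, calls numbered 0 among anchors and inhibitors, 0 among NFAT kinases, 0 among other substrates and 1 among further family genes (Hivep2), where adding 0.1 FPKM also gave 1. No paired analysis was possible because AngII and control had a single library apiece; leaving 1 out would have left nothing to compare.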

Other observations

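By distance in log2(FPKM + 1) over the 2 RNA libraries, the gene nearest to Rcan1 was Spry2, an inhibitor of receptor tyrosine kinase signalling, at 53.4 FPKM after AngII and 8.41 FPKM in control (distance 0.0390). It was followed by the cytokine receptor gene Tnfrsf12a, at 50.4 FPKM after AngII and 7.93 FPKM in control (0.0763), whose listed interval is shared with other loci. Nearest to Hivep3 were Egr3, at 14.4 FPKM after AngII and 0.135 FPKM in control (0.152), and Nr4a3, at 22.8 FPKM after AngII and 0.279 FPKM in control (0.502). With 2 values per gene, such closeness describes these libraries alone.

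Egr3 and Nr4a3 each had H3K36me3 over 100% of their locus after AngII and 0% in control. The same cover was listed at Fos and Egr2, which were higher in RNA, and at the calmodulin gene Calm2, which was not. Calm2 stood at 166 FPKM after AngII and 172 FPKM in control. At the fibroblast marker Dpep1 the cover was 90.6% after AngII and 0% in control. Its RNA was lower after AngII, at 2.44 FPKM against 3.59 FPKM in control.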
